A study of Mus musculus with 9 samples.

Results

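Microglia, the resident macrophages of the brain, were compared with CD8a+ dendritic cells (DC) across the genes of a whole-transcriptome array. The comparison holds 6 of the 9 samples of the series, 3 arrays titled microglia and 3 titled CD8a+DC, and covers 19938 genes. The other 3 samples are lymph node macrophages called T zone macrophages (TZM), which entered the fit to help estimate the spread and are otherwise not described. All mice carried the CX3CR1 gfp+/- genotype, in which 1 copy of the fractalkine receptor gene is replaced by a green fluorescent protein (GFP) reporter, so both populations share it. Per the labels, both suspensions were made with DNase I and collagenase I. The brain cells were enriched for CD11b and sorted as GFP-high, CD11b+ and CD45+ cells. The DC were enriched for CD11c and sorted as CD8a+ cells with high CD11c and high MHC class II and without CD64. The sample fields of the DC give lymph node as their tissue and the sorting protocol gives spleen, and the labels do not settle which holds. The labels give no age or sex, and they do not say whether animals were pooled. The arrays of a population are labelled biological replicates.

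Microglia arise from yolk sac progenitors, settle in the brain before birth and persist there by self-renewal. They depend on signalling through the colony-stimulating factor 1 receptor and on transforming growth factor beta (TGF-beta) in the brain tissue, survey the parenchyma with motile processes, and take up dying cells and synaptic material. CD8a+ DC belong to the type 1 conventional DC, which arise from bone marrow progenitors under the growth factor Flt3 ligand and the transcription factors Irf8 and Batf3. They take up dead cells too, but are known for presenting the captured antigen on MHC class I to CD8 T cells and for making interleukin 12.

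Levels are log2 values, and a difference is the microglia mean minus the DC mean on that scale, so that a difference of 1 is a fold change of 2. A call required an absolute difference of at least 1 and, in limma with Benjamini-Hochberg adjustment, an adjusted p under 0.05. Only called genes are written of as higher or lower, and every difference given with a standard error (SE) passed the call. Sizes of gene lists count the members measured. The 3 arrays per population limit the precision. In bulk samples, fewer cells of a type and less RNA per cell cannot be told apart.

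Of 19938 genes, 2224 (11.2%) were called. In microglia 1026 genes (5.15%) were higher and 1198 (6.01%) were lower, and every called gene had microglia and DC arrays that did not overlap. Arrays of the 2 populations did not overlap for 7537 genes (37.8%) in all. Among the 7678 genes at a level of 6 or more in at least 3 of the 9 arrays, 906 (11.8%) were higher and 1056 (13.8%) lower. The higher genes had a median difference of 1.65, and 100 of them differed by at least 4. The lower genes had a median difference in size of 1.58, and 88 of them differed by at least 4. Of the 1026 higher genes, 596 had a mean level under 6 in DC, and likewise 596 of the 1198 lower genes had a mean level under 6 in microglia. No detection call was used here, so for these genes the dimmer population is not separated from background.

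The largest difference upward was that of Fcrls, an Fc receptor-like protein known as a microglia marker, with levels of 11.92, 11.98 and 11.90 in microglia, against 3.69, 3.77 and 3.82 in DC. All microglia arrays lay far above all DC arrays, and the difference was 8.17 ± 0.08 (SE), adjusted p = 3.12e-10 in limma. The next in size by the rule for named genes were Il1a, C1qa, C3ar1, Sparc, C1qc, Mertk, Tmem119, Ccl12, Csf1r, Cx3cr1 and Plxdc2, with differences between 6.78 for Plxdc2 and 7.74 for Il1a. Downward the largest was Ifi205, an interferon-inducible member of the AIM2-like family, with levels of 3.97, 2.97 and 2.91 in microglia, against 11.05, 10.91 and 11.06 in DC. Its difference was -7.72 ± 0.54 (SE), adjusted p = 1.13e-05, and the arrays of the 2 populations were again wide apart. It was followed by Clec9a, Dnase1l3, Gpr141b, Gpr171, Plbd1, Cd24a, Anpep, Xcr1, Plac8, Cxcl9 and Apol7c, with differences between -6.42 for Apol7c and -7.47 for Clec9a. Dnase1l3, a secreted nuclease that digests DNA in chromatin, had levels of 4.48, 4.47 and 4.01 in microglia, against 11.82, 11.80 and 11.74 in DC. Cx3cr1 is the gene behind the GFP gate and is no finding.

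**Figure D1:**
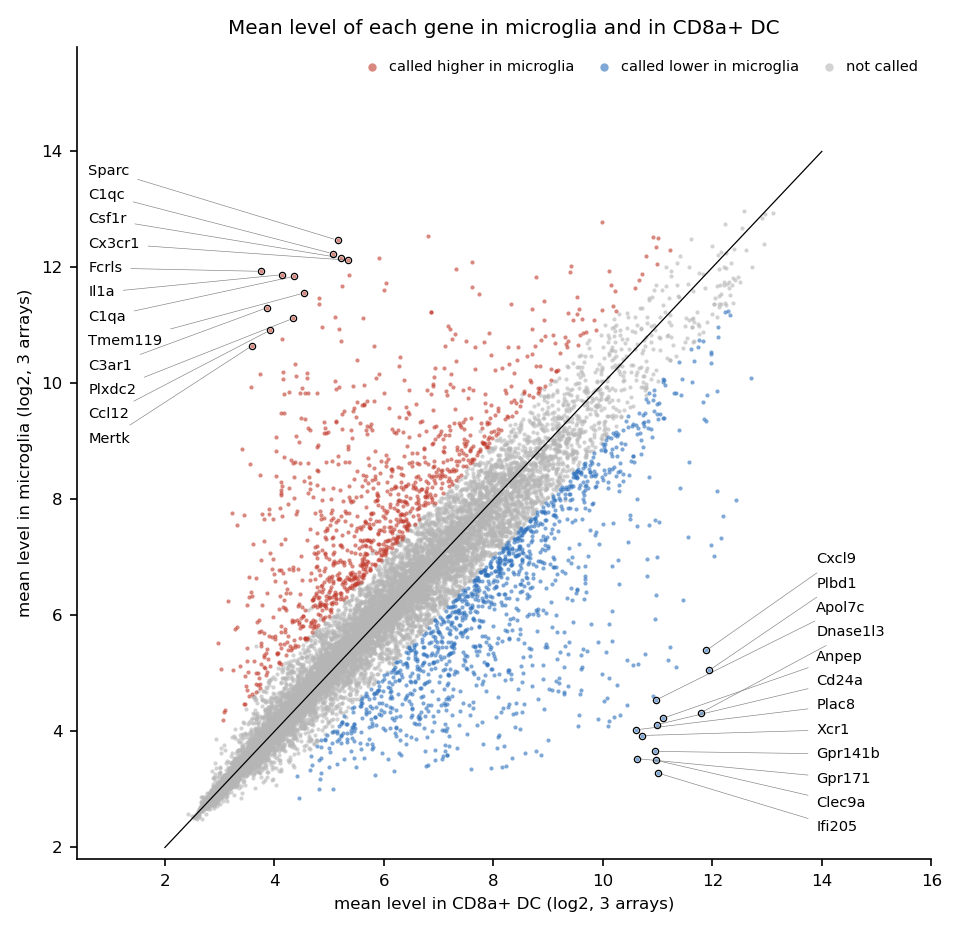
Mean log2 level of each of 19938 genes in microglia (vertical) against CD8a+ DC (horizontal), 3 arrays each. The 1026 genes called higher and the 1198 called lower in microglia are coloured, the line marks equal levels, and the 12 largest named genes in each direction are circled.

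The labelled cell types were checked against their markers. Of 29 genes known as microglia genes, 28 were higher and 0 lower, where 5.15% and 6.01% of all genes were. The median difference of the list was 4.76, against 0.01 over all genes, which is also the value beside which the medians below stand. Counts of list members below are to be read against these 5.15% and 6.01%, or against the 11.8% and 13.8% of brighter genes, and a count near those shares is no result about its list. Tmem119, a membrane protein used to mark microglia, had levels of 11.50, 11.58 and 11.59 in microglia, against 4.37, 4.62 and 4.62 in DC. P2ry12, the ADP receptor that steers microglial processes, had levels of 11.49, 11.44 and 11.50 in microglia, against 4.80, 4.76 and 4.89 in DC. Sall1, the zinc finger transcription factor that maintains microglial identity, had levels of 10.23, 9.70 and 9.58 in microglia, against 4.36, 4.41 and 4.63 in DC. In each of these 3 genes every microglia array lay above every DC array, and the differences were 7.02 ± 0.14 (SE) for Tmem119, 6.66 ± 0.06 (SE) for P2ry12 and 5.37 ± 0.16 (SE) for Sall1. Only Cst3, the protease inhibitor cystatin C, was not called in this list, at 12.69 ± 0.04 in microglia and 12.54 ± 0.02 in DC (SD, n = 3 each). Siglech, also known from plasmacytoid DC, was well above the low end in both populations, at 11.36 ± 0.04 in microglia and 8.32 ± 0.23 in DC (SD, n = 3 each), and was higher in microglia by 3.04 (adjusted p = 2.39e-05).

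Of 36 genes of a macrophage core list, 32 were higher and 0 lower, with a median difference of 3.71. The receptor tyrosine kinase Mertk, which binds dying cells through bridging proteins, had levels of 10.80, 10.78 and 10.38 in microglia, against 3.59, 3.58 and 3.62 in DC. Csf1r, the growth factor receptor on which macrophages depend, had levels of 12.20, 12.15 and 12.15 in microglia, against 4.84, 5.50 and 5.28 in DC. DC arrays varied more than microglia arrays for Csf1r but stayed far below all of them, and the differences were 7.06 ± 0.11 (SE) for Mertk and 6.96 ± 0.15 (SE) for Csf1r. Fcgr1, which encodes the CD64 that the DC gate excluded, belongs to this list and is no finding. The 4 members not called were Cebpb, just under the fold minimum (1.0, adjusted p = 0.000493), Cd63 (0.68, adjusted p = 0.000467), Fcgr4 (0.41, adjusted p = 0.319) and Dok3 (0.40, adjusted p = 0.00744).

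The DC side carried the reverse pattern. Of 26 genes of a classical DC core list, 24 were lower in microglia and 0 higher, with a median of -3.78. Of 24 genes known from type 1 DC, all 24 that were measured were lower, with a median of -3.44, and Cd8a and Itgax among them encode gated proteins. Xcr1, the receptor for the chemokine Xcl1 and the surface mark of type 1 DC, had levels of 4.01, 3.90 and 3.88 in microglia, against 10.74, 10.73 and 10.65 in DC. Clec9a, a lectin that binds the exposed actin of dead cells, had levels of 3.51, 3.47 and 3.53 in microglia, against 11, 10.94 and 10.98 in DC. Microglia arrays sat near the low end of the scale for both and never came near DC arrays, and the differences were -6.78 ± 0.08 (SE) and -7.47 ± 0.14 (SE). The smallest differences in the type 1 list were those of Tlr3 (-1.17) and Irf8 (-1.41), both at a mean level above 9 in microglia. In the DC core, Cd83, a maturation marker of DC, was bright in both, at 11.60 ± 0.17 in microglia and 11.66 ± 0.04 in DC (SD, n = 3 each), and was not called (-0.06, adjusted p = 0.912).

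**Figure D2:**
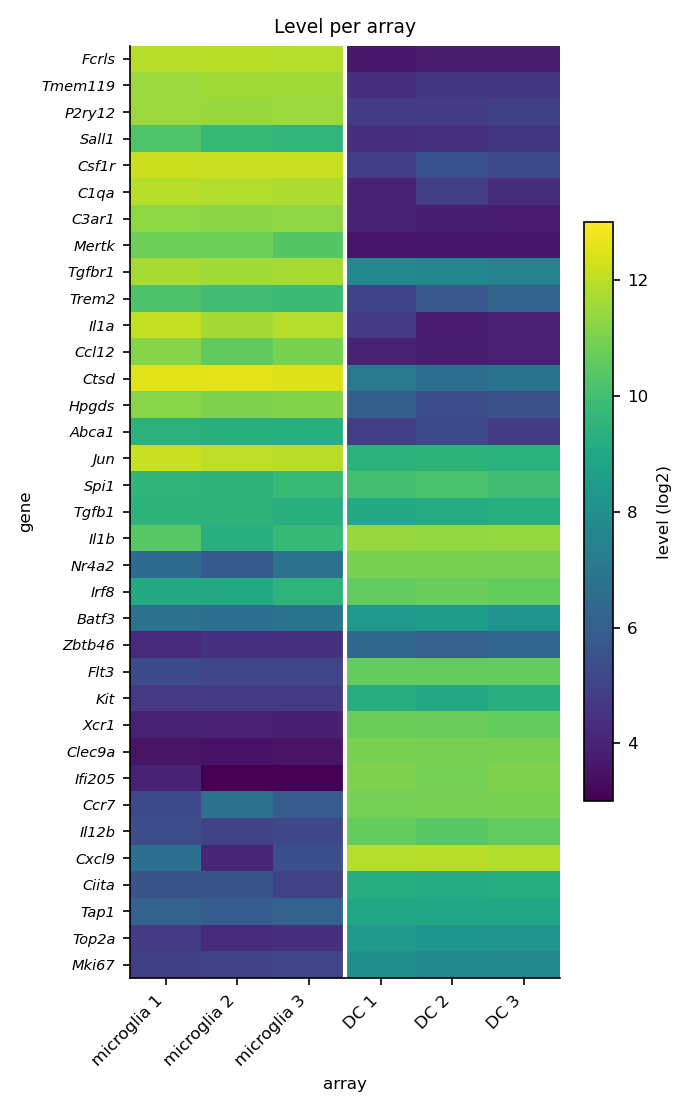
Log2 level per array of 35 named genes in microglia (left 3 columns) and DC (right 3 columns), from dark (3 or less) to bright (13). Genes at the top are bright in all microglia arrays and genes at the bottom in all DC arrays, while Spi1 and Tgfb1 in the middle are alike in colour in all 6.

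Markers of other cells were looked at next. Neuron markers were near the low end in both populations, with list means per array of 3.96 to 4.0 in microglia and 3.90 to 3.91 in DC, and none of the 10 reached a mean level of 6. Of 9 astrocyte markers only Slc1a3, a glutamate transporter also known from microglia, was higher (2.70, adjusted p = 3.84e-06), while Gfap (0.04) and Aqp4 (0.16) were at the low end. No oligodendrocyte or T cell marker was called in either direction. Neutrophil markers gave Csf3r alone (5.42, adjusted p = 5.37e-09), the granulocyte colony-stimulating factor receptor, and Ly6g was at 3.19 ± 0.09 in microglia and 3.07 ± 0.05 in DC (SD, n = 3 each). The list means of B cell markers per array were 4.43 to 4.61 in microglia and 4.81 to 4.90 in DC, with Ms4a1 lower in microglia (-3.08) and Cd79b not called (1.22, adjusted p = 0.0813), though called higher under 4 of its alternatives. Of 8 monocyte markers, Plac8 (-6.57), Itga4 (-5.43) and Ccr2 (-1.52) were lower. Of 8 plasmacytoid DC markers, Ccr9 (-3.13) and Ly6d (-3.05) were lower and Siglech and Tcf4 higher. The list means per array were 6.83 to 6.92 in microglia and 7.42 to 7.61 in DC. A mean level of 6 was reached by 5 of these markers in microglia and by 7 in DC. Of 10 markers of type 2 DC, the other branch of conventional DC, Clec12a (-4.28) and Cd4 (-1.44) were lower, and Sirpa and the gated Itgam were higher. Klrk1, an activating receptor of natural killer cells (-3.56), and Flt1, an endothelial receptor (-1.70), were the lower genes of their lists. Xist lay between 9.95 and 10.55 in all 6 arrays, and the 3 Y-linked genes measured were not called.

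Microglia replicate 2 stood apart from replicates 1 and 3 in transcripts known from the choroid plexus and from macrophages at the borders of the brain. Ttr, the thyroxine carrier made by the choroid plexus, had levels of 12.15, 5.48 and 11.83 in microglia, against 4.08, 4.29 and 4.17 in DC. Replicates 1 and 3 were among the brightest values of the array, and replicate 2 was little above the DC. Mrc1, the mannose receptor of border macrophages, had levels of 8.96, 7.21 and 8.54 in microglia, against 4.11, 4.16 and 4.16 in DC, and Pf4, a chemokine known from the same cells, had levels of 9.11, 7.05 and 8.72 in microglia, against 3.97, 4.54 and 3.86 in DC. For both genes replicate 2 was the lowest microglia array but still above every DC array. Ms4a7, a membrane protein of border macrophages, had levels of 6.80, 4.37 and 6.63 in microglia, against 4.40, 5.20 and 4.89 in DC, and here replicate 2 lay below every DC array. The list mean of 12 border markers ran from 5.47 to 6.58 over the microglia arrays and from 4.76 to 4.91 over the DC arrays. That of 8 choroid plexus markers ran from 4.43 to 5.85 over the microglia arrays and from 4.13 to 4.27 over the DC arrays. Without replicates 1 and 3, an alternative added after seeing the data that leaves 1 microglia array assumed to vary like the other arrays, 926 genes were higher and 1190 lower, and 842 and 1040 of these were also called with all arrays. In that alternative 3 border markers were higher, against 6 with all arrays. The difference of Ttr was 5.64 over all arrays (adjusted p = 0.0255), and the call was lost when any DC array or microglia replicate 1 or 3 was left out (adjusted p from 0.067 to 0.089) or when the TZM arrays were left out of the fit (adjusted p = 0.068). Kcnj13, a choroid plexus channel, was not called (1.45, adjusted p = 0.0562).

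DC arrays in turn carried transcripts of red cells and of the exocrine pancreas, which were noticed after the values were seen. Alpha globin, on a probe set shared by Hba-a1 and Hba-a2, had levels of 5.99, 6.24 and 5.52 in microglia, against 9.88, 9.95 and 9.85 in DC. Beta globin, on a probe set shared by several Hbb genes, had levels of 7.33, 7.14 and 7.5 in microglia, against 11.24, 11.24 and 11.2 in DC. It was thus above a level of 6 in the microglia arrays too. Pancreatic amylase, on a probe set shared by Amy2a2, Amy2b and Amy2a5, had levels of 3.25, 3.22 and 3.21 in microglia, against 7.43, 7.04 and 7.01 in DC. All 3 DC arrays lay above all microglia arrays in each case. Ctrb1, the precursor of chymotrypsin, had levels of 4.03, 4.58 and 4.14 in microglia, against 6.33, 6.10 and 6.22 in DC. Of 19 measured genes of pancreatic enzymes and secreted proteins listed after the values were seen, 6 were lower in microglia and 0 higher, while none of 5 markers of red cell precursors was called. The part of these transcripts in the results below was not tested.

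**Figure D3:**
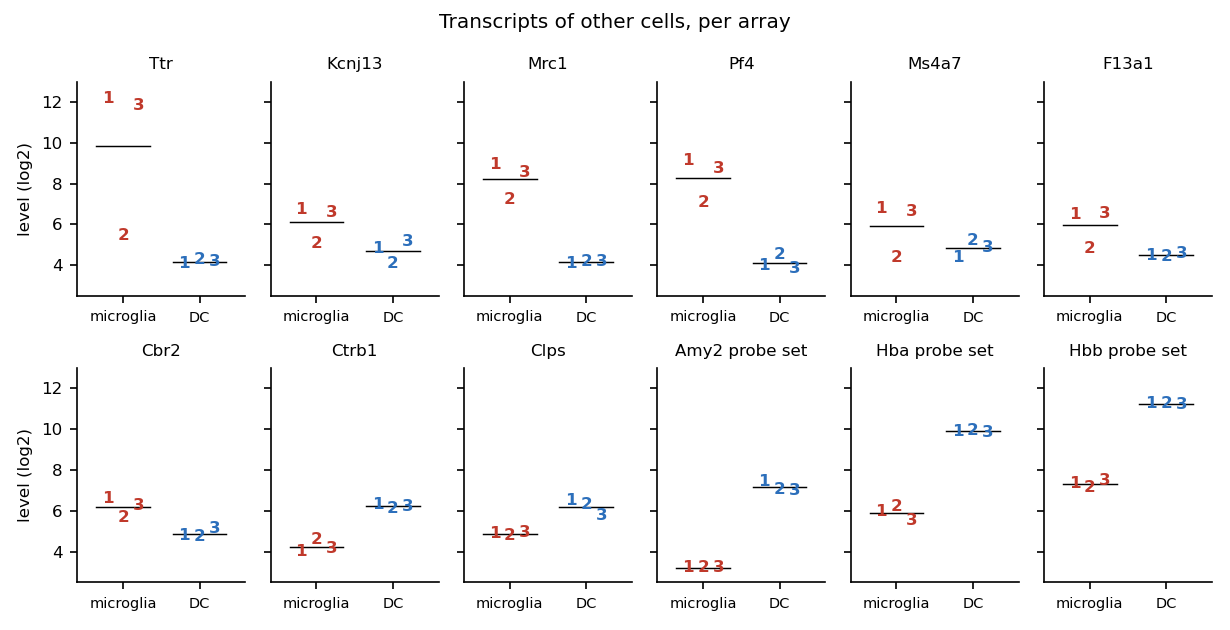
Log2 levels per array of transcripts known from other cells in microglia (left in each panel) and DC (right). Digits are replicate numbers and short lines are means. Replicate 2 is the lowest microglia array from Ttr to Cbr2, and DC arrays are above microglia arrays for Ctrb1, Clps, amylase and both globins.

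Transcription factors differed on both sides. Of 26 factors known from macrophages, 12 were higher in microglia and 2 lower, with a median of 0.92. Besides Sall1, Bhlhe41 had levels of 9.16, 8.78 and 8.69 in microglia, against 3.32, 3.58 and 3.34 in DC, while its close relative Bhlhe40 had levels of 4.77, 4.32 and 4.41 in microglia, against 8.46, 8.31 and 8.46 in DC. These 2 basic helix-loop-helix repressors were thus apart in opposite directions, by 5.47 ± 0.13 (SE) and -3.91 ± 0.13 (SE), and neither pair of groups overlapped. Cebpa (3.58, adjusted p = 1.45e-07) and Mef2c (3.09, adjusted p = 7.09e-06), factors of myeloid and microglial gene control, were higher too. Spic, the factor of red pulp macrophages that handle heme, was lower in microglia (-3.45, adjusted p = 3.69e-06). Spi1, which encodes the myeloid master factor PU.1, was not called, at 9.57 ± 0.15 in microglia and 10.01 ± 0.09 in DC (SD, n = 3 each).

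Of 21 factors known from DC, 12 were lower in microglia, 2 were higher and 7 were not called, with a median of -1.44. Irf8, needed by both type 1 DC and microglia, had levels of 9.13, 9.10 and 9.49 in microglia, against 10.61, 10.70 and 10.62 in DC. Batf3, the partner that keeps type 1 DC in their fate, had levels of 6.78, 6.65 and 6.83 in microglia, against 8.40, 8.48 and 8.20 in DC. Zbtb46, the factor that marks classical DC, had levels of 4.25, 4.42 and 4.42 in microglia, against 6.35, 6.06 and 6.25 in DC. Groups did not overlap for any of the 3, with differences of -1.41 ± 0.10 (SE), -1.61 ± 0.12 (SE) and -1.86 ± 0.10 (SE). Runx3 (-3.43) and Bcl11a (-3.27) differed by more. Klf4 (2.33, adjusted p = 2.04e-05) and Tcf4 (1.49, adjusted p = 0.000175) were higher in microglia, and Tcf4 is known as the factor of plasmacytoid DC. Id2, which restrains Tcf4, was not called (-0.89, adjusted p = 0.0637). Cbfa2t3 was lower (-2.31) on the brighter of its probe sets and differed by -0.26 with no call on the other.

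Growth factor receptors were called in both directions. Csf1r and Csf3r were higher in microglia, and Flt3, the receptor on which DC development depends, was lower, with levels of 5.33, 5.09 and 5.09 in microglia, against 10.65, 10.65 and 10.63 in DC. Kit, the stem cell factor receptor, had levels of 4.65, 4.75 and 4.69 in microglia, against 9.23, 9.05 and 9.29 in DC. DC arrays were 4 or more units above microglia arrays for both, with differences of -5.48 ± 0.08 (SE) and -4.49 ± 0.10 (SE). The chains of the receptor for granulocyte-macrophage colony-stimulating factor were lower in microglia by smaller amounts, Csf2ra (-1.11, adjusted p = 0.00083), Csf2rb (-1.66, adjusted p = 3.65e-05) and Csf2rb2 (-1.07, adjusted p = 0.00088). Csf2ra fell under the fold minimum without microglia replicate 2 (-0.96) and Csf2rb2 without DC replicate 1 (-0.99). In the whole list of 19 receptors, 4 were higher and 7 lower.

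Every called gene of the TGF-beta pathway was higher in microglia, and they included both signalling receptors but no ligand. Of 29 genes of the pathway, 10 were higher and 0 lower, with a median of 0.75. Tgfbr1, the type 1 receptor, had levels of 11.67, 11.63 and 11.69 in microglia, against 7.75, 7.68 and 7.39 in DC. Tgfbr2, the type 2 receptor, had levels of 9.13, 9.10 and 8.88 in microglia, against 6.93, 7.0 and 6.90 in DC. Every microglia array was above every DC array, by 4.05 ± 0.09 (SE) and 2.10 ± 0.22 (SE) on average. Also higher were the co-receptor Eng (3.28), the bone morphogenetic protein receptor Bmpr1a (3.10), the transducer Smad3 (2.08), the inhibitor Smad7 (2.56) and the co-repressor Ski (2.06). Tgfb1, the main ligand in myeloid cells, was at 9.41 ± 0.10 in microglia and 9.19 ± 0.09 in DC (SD, n = 3 each) and was not called (0.22, adjusted p = 0.516), nor was Nrros, which anchors it on myeloid cells (0.12, adjusted p = 0.63). Smad4, the mediator shared by all branches, was not called (-0.51, adjusted p = 0.00948).

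Some complement genes were among the largest differences, while most of the list was not called. Of 22 genes, 8 were higher and 1 was lower, with a median of 0.16. Without Itgam, which encodes the gated CD11b, 7 of 21 were higher. The 3 chains of C1q, which starts the classical pathway and tags synapses and dying cells, were all higher. C1qa had levels of 11.93, 11.86 and 11.75 in microglia, against 3.98, 4.80 and 4.32 in DC, and its difference was 7.48 ± 0.22 (SE). C3ar1, the receptor for the C3a fragment, had levels of 11.30, 11.27 and 11.35 in microglia, against 3.95, 3.84 and 3.82 in DC, a difference of 7.44 ± 0.10 (SE). Microglia arrays were within 0.2 units of each other for both genes, and DC arrays were at the low end. C5ar1 (4.91, adjusted p = 5.8e-08) was higher as well. Properdin (Cfp), which stabilises the alternative pathway, was lower in microglia (-2.56, adjusted p = 0.000103). C2 and C4b, which act after C1q, were at the low end in both populations, with differences of 0.03 and 0.26.

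Receptors that signal through immunoreceptor motifs were mostly higher in microglia where they were called. Of 30 Fc receptors, adaptors and related genes, 10 were higher and 2 lower. Without Fcgr1, whose CD64 the DC gate excluded, 9 of 29 were higher. Trem2, a lipid-sensing receptor of microglia, had levels of 10.19, 9.92 and 9.80 in microglia, against 5.0, 5.71 and 6.20 in DC, and the difference was 4.33 ± 0.26 (SE). Its adaptor Tyrobp was bright in both, at 12.07 ± 0.08 in microglia and 11.35 ± 0.02 in DC (SD, n = 3 each), with a difference that stayed under the fold minimum (0.72, adjusted p = 3.54e-05). Fcgr3 (6.03, adjusted p = 2.13e-08) and Sirpa, the receptor for the signal Cd47 (5.62, adjusted p = 8.59e-08), were higher. Treml4, a receptor of type 1 DC that binds dead cells, was lower, with levels of 4.63, 4.75 and 4.01 in microglia, against 10.52, 10.37 and 10.46 in DC. Pirb, an inhibitory receptor for MHC class I, was lower too (-2.09, adjusted p = 0.000353). Among 9 Siglecs, sialic acid receptors, 3 were higher and 0 were lower: Cd33 (5.76, adjusted p = 9.54e-09), Siglece (4.69, adjusted p = 4.37e-07) and Siglech.

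C-type lectins were divided, with 5 of 28 higher and 8 lower. Higher in microglia were Clec4a3 (5.04, adjusted p = 8.39e-07), Clec5a (4.24, adjusted p = 1.26e-07), Mrc1 and Clec4a2 (3.85, adjusted p = 1.5e-05). Mrc1 is a border macrophage marker whose microglia arrays were apart as described above, and its difference was 4.09 over all arrays and 3.06 with replicate 2 as the sole microglia array. Lower besides Clec9a were Ly75, the uptake receptor DEC-205 (-4.53, adjusted p = 8.71e-08), Clec12a, a receptor for uric acid crystals (-4.28, adjusted p = 0.000116), and Clec2i (-4.04, adjusted p = 5.77e-07). Clec7a, the beta-glucan receptor dectin-1, was not called (-0.82, adjusted p = 0.0514).

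Receptors for nucleotides differed in both directions. Of 18 purinergic genes, 7 were higher and 3 lower. P2ry13, an ADP receptor, had levels of 12.19, 12.19 and 12.12 in microglia, against 5.73, 5.63 and 6.38 in DC. P2ry14, the receptor for UDP-glucose, had levels of 4.23, 4.09 and 4.42 in microglia, against 10.22, 10.20 and 10.19 in DC. The order of the populations was thus opposite for these 2 receptors, with differences of 6.26 ± 0.19 (SE) and -5.95 ± 0.10 (SE) and no overlap for either. Entpd1, which breaks down extracellular ATP, was higher in microglia (2.59, adjusted p = 8.06e-08), as was the ATP-gated channel P2rx7 (1.95, adjusted p = 2.68e-06). Nt5e, which makes adenosine, was at the low end in both (0.14, adjusted p = 0.494).

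Pattern recognition genes were mostly higher in microglia where they were called. Of 23 genes of the Toll-like receptors, 8 were higher and 2 lower. Tlr7, which senses single-stranded RNA, had levels of 9.86, 10.15 and 9.73 in microglia, against 5.55, 5.22 and 4.60 in DC. Tlr4, the lipopolysaccharide receptor, had levels of 8.92, 9.37 and 9.18 in microglia, against 5.01, 5.21 and 4.71 in DC. DC arrays stayed below 6 and microglia arrays above 8 for both, and Cd14, the co-receptor of Tlr4, was higher as well (3.08, adjusted p = 0.000179). Tlr3, which senses double-stranded RNA, had levels of 9.13, 9.15 and 9.33 in microglia, against 10.42, 10.38 and 10.33 in DC, a difference of -1.17 ± 0.15 (SE). Tlr12 was the other receptor called lower (-1.08, adjusted p = 0.0466), and it lost its call without any one DC array, TZM replicate 3, or microglia replicate 1 or 2 (adjusted p from 0.063 to 0.16). Tlr9 (0.46, adjusted p = 0.269) and the adaptor Myd88 (0.44, adjusted p = 0.267) were not called.

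Of 23 cytosolic sensors and inflammasome genes, 6 were higher and 2 lower. Sting1, the adaptor of DNA sensing, had levels of 9.88, 10.04 and 9.75 in microglia, against 7.32, 7.76 and 7.23 in DC, with a difference of 2.45 ± 0.14 (SE). Ddx58, which encodes the RNA sensor RIG-I, was higher (2.50, adjusted p = 3.99e-07), and so were Nlrp3 (1.92, adjusted p = 4.83e-05) and Casp4 (2.14, adjusted p = 0.00013). Lower were Mefv, which encodes pyrin (-2.64, adjusted p = 1.19e-05), and Zbp1 (-1.73, adjusted p = 8.82e-05). The sensor of cytosolic DNA, Cgas, was near the low end in both (0.26, adjusted p = 0.0752).

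Interferon-stimulated genes were called in both directions. Of 30, 4 were higher, 7 were lower and 19 were not called, and the median was -0.30. Irf7, which amplifies interferon production, had levels of 4.62, 4.49 and 4.98 in microglia, against 7.44, 7.56 and 7.20 in DC. Groups did not overlap, and the difference was -2.70 ± 0.14 (SE). Ifitm3 (-1.93, adjusted p = 0.000332) and Mx1 (-1.98, adjusted p = 4.66e-05), antiviral proteins, were lower too, while Ifit3 (1.55, adjusted p = 0.000688) and Mx2 (1.20, adjusted p = 0.00824) were higher. Mx2 fell under the fold minimum without microglia replicate 3 (0.93), and with replicate 2 as the sole microglia array the count of higher members was 2. Rsad2, which encodes viperin, was not called (-0.10, adjusted p = 0.783).

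Receptors for chemokines and other attractants were called in both directions. Of 25, 6 were higher and 6 lower. Without Cx3cr1, the gene behind the GFP gate, 5 of 24 were higher and 6 lower. Ccr7, which guides DC to T cell areas, had levels of 5.20, 6.72 and 5.89 in microglia, against 10.93, 10.93 and 10.98 in DC. Cxcr4, the receptor for Cxcl12, had levels of 6.64, 6.66 and 6.74 in microglia, against 10.78, 10.85 and 10.79 in DC. Microglia arrays varied by more than 1 unit for Ccr7 but none came near the DC, and the differences were -5.01 ± 0.31 (SE) and -4.13 ± 0.07 (SE). Cxcr3 (-2.81, adjusted p = 4.38e-06), Ccr9 (-3.13, adjusted p = 6.89e-05) and Ccr2 (-1.52, adjusted p = 0.000129) were lower as well. Cmklr1, the chemerin receptor (4.54, adjusted p = 1.28e-07), S1pr1, a sphingolipid receptor (3.0, adjusted p = 2.15e-05), and Gpr183, an oxysterol receptor (2.94, adjusted p = 5.54e-07), were higher in microglia.

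Chemokine ligands were called in both directions, more often higher. Of 29, 10 were higher in microglia and 5 lower. Ccl12, a monocyte attractant, had levels of 11.18, 10.57 and 10.99 in microglia, against 4.0, 3.86 and 3.90 in DC. Ccl3, an inflammatory chemokine, had levels of 12.92, 12.63 and 12.80 in microglia, against 10.05, 9.96 and 9.93 in DC. Microglia arrays were above DC arrays for both, by 7.0 ± 0.16 (SE) and 2.81 ± 0.11 (SE), although Ccl3 was bright in DC as well. Ccl2 (2.95, adjusted p = 9.84e-06), Ccl4 (1.83, adjusted p = 4.36e-05) and Ccl9 (4.31, adjusted p = 8.53e-08) were also higher, and Ccl7 (3.61, adjusted p = 0.00447) had levels of 9.52, 7.10 and 9.38 in microglia, with the lowest in replicate 2 (a difference of 2.05, adjusted p = 0.11, with that array as the sole microglia array). Cxcl9, which attracts T cells through Cxcr3, had levels of 6.67, 4.07 and 5.46 in microglia, against 11.90, 11.92 and 11.86 in DC. Its microglia arrays spread over more than 2 units, all of them far below the DC, and the difference was -6.49 ± 0.53 (SE). Ccl5 (-5.20, adjusted p = 4.37e-07) and Ccl22 (-4.61, adjusted p = 5.8e-08), other T cell attractants, were lower in microglia too, whereas Cxcl10 was not called (-0.33, adjusted p = 0.523).

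Among 32 cytokines, 4 were higher and 5 lower. Both interleukin 1 ligands were bright in microglia, but they differed from DC in opposite directions. Il1a had levels of 12.08, 11.64 and 11.90 in microglia, against 4.76, 3.74 and 3.91 in DC, and Il1b had levels of 10.40, 9.30 and 9.71 in microglia, against 11.47, 11.38 and 11.43 in DC. For Il1a every microglia array was above every DC array, a difference of 7.74 ± 0.24 (SE). For Il1b every microglia array was below every DC array, a difference of -1.62 ± 0.29 (SE). Il12b, the shared subunit of interleukins 12 and 23, had levels of 5.35, 4.93 and 5.18 in microglia, against 10.62, 10.41 and 10.61 in DC, a difference of -5.40 ± 0.11 (SE). Osm (3.76, adjusted p = 2.41e-06) and Csf1 (3.57, adjusted p = 1.51e-06) were higher in microglia, and Il15 (-1.40, adjusted p = 0.00379) was lower. Tnf had levels of 10.62, 9.72 and 10.53 in microglia, against 9.56, 9.56 and 9.56 in DC and was not called (0.73, adjusted p = 0.0602), nor were Il6 (0.80, adjusted p = 0.016) and Il10 (0.39, adjusted p = 0.639).

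Of 28 receptors for interleukins and interferons, 6 were higher and 3 lower. Il13ra1 (2.22, adjusted p = 6.79e-05), Il6ra (1.90, adjusted p = 0.000317) and Il17ra (1.53, adjusted p = 0.00405) were higher. Il12rb2 (-2.46, adjusted p = 1.41e-06), the decoy receptor Il1r2 (-2.02, adjusted p = 0.000342) and Il15ra (-1.55, adjusted p = 4.25e-06) were lower. Ifngr1 was bright in both, at 10.64 ± 0.03 in microglia and 10.77 ± 0.04 in DC (SD, n = 3 each), and was not called (-0.13, adjusted p = 0.383).

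Secreted matrix and trophic factors gave 11 higher and 3 lower genes of 30. Sparc, a matrix-binding glycoprotein, had levels of 12.54, 12.42 and 12.44 in microglia, against 5.10, 4.90 and 5.47 in DC. Adamts1, a metalloprotease, had levels of 10.60, 9.52 and 10.36 in microglia, against 3.63, 3.61 and 3.94 in DC. Timp2, an inhibitor of metalloproteases, had levels of 9.49, 9.48 and 9.49 in microglia, against 3.93, 4.05 and 4.39 in DC. All 3 were at or near the low end in DC and bright in all microglia arrays, with differences of 7.31 ± 0.13 (SE), 6.43 ± 0.25 (SE) and 5.36 ± 0.11 (SE). Pdgfb (3.0, adjusted p = 0.000161) and Gas6, a bridging ligand of Mertk and Axl (2.68, adjusted p = 1.24e-05), were higher as well. Lgals3, a galactose-binding lectin, had levels of 5.98, 6.21 and 6.01 in microglia, against 10.16, 10.21 and 10.12 in DC, and Adam8, a membrane protease, was lower likewise (-4.30, adjusted p = 2.13e-08). Igf1, a growth factor known from some microglial states, was not called (0.59, adjusted p = 0.067).

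Integrins were called in both directions. Of 32 adhesion genes, 9 were higher and 10 lower. Itgam encodes the gated CD11b and Itgax the gated CD11c, and neither is a finding. Itgb5, a partner of the alpha V integrin, had levels of 10.88, 10.96 and 11.07 in microglia, against 4.73, 4.68 and 5.22 in DC. Itga4, a chain of the Vcam1 receptor, had levels of 5.36, 5.20 and 5.45 in microglia, against 10.84, 10.69 and 10.77 in DC. The order was opposite for these 2 chains, with no overlap and differences of 6.09 ± 0.15 (SE) and -5.43 ± 0.19 (SE). Itga6 (4.25, adjusted p = 6.04e-08), Itga9 (3.94, adjusted p = 2.11e-08) and the junction protein F11r (5.51, adjusted p = 1.33e-07) were higher in microglia. Cd44, the hyaluronan receptor (-4.65, adjusted p = 3.47e-08), Itgae (-3.85, adjusted p = 5.62e-07) and Itgal (-3.21, adjusted p = 1.04e-07) were lower. The shared beta chain Itgb2 was not called (-0.26, adjusted p = 0.225).

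Uptake of dying cells is a known task of both populations, and its genes were called in both directions, more often higher. Of 37 genes, 16 were higher in microglia and 3 lower. Pros1, a bridging ligand of Mertk, had levels of 9.78, 10.10 and 9.67 in microglia, against 4.28, 4.05 and 4.49 in DC, and Lrp1, a large scavenger receptor, had levels of 9.71, 9.41 and 9.46 in microglia, against 5.33, 5.47 and 5.53 in DC. The arrays did not overlap for either, with differences of 5.58 ± 0.17 (SE) and 4.09 ± 0.10 (SE). Abca1, which exports cholesterol (4.42, adjusted p = 1.99e-07), Stab1, a phosphatidylserine receptor (3.73, adjusted p = 5.5e-08), and Dock1, part of the engulfment machinery (2.18, adjusted p = 8.8e-06), were higher. Cd36, a scavenger receptor for lipids and dead cells, had levels of 5.66, 4.50 and 5.54 in microglia, against 10.47, 10.54 and 10.31 in DC, a difference of -5.20 ± 0.31 (SE). Scarb1 (-1.92, adjusted p = 3.41e-06) and Timd4 (-1.22, adjusted p = 0.00361) were lower, and Timd4 fell under the fold minimum without microglia replicate 2 (-0.95). Axl, the relative of Mertk, was not called (0.81, adjusted p = 0.0274).

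Lysosomal genes were more often called higher than lower, at 21 and 6 of 50, with a median of 0.74. Ctsd, the aspartic protease cathepsin D, had levels of 12.56, 12.60 and 12.48 in microglia, against 7.03, 6.61 and 6.80 in DC. Lgmn, the asparagine endopeptidase legumain, had levels of 12.03, 11.85 and 12.04 in microglia, against 7.46, 7.23 and 7.24 in DC. Microglia arrays were above 11 for both and DC arrays below 8, with differences of 5.74 ± 0.20 (SE) and 4.67 ± 0.10 (SE). Ctsl (3.55, adjusted p = 1.48e-07), Tpp1 (3.20, adjusted p = 1.33e-07) and Acp2 (3.07, adjusted p = 1.4e-05) were higher too. Among those lower were Gm2a, the activator that presents gangliosides to hexosaminidase (-2.46, adjusted p = 5.94e-07), Acp5 (-2.44, adjusted p = 2.8e-05), Fuca1 (-1.90, adjusted p = 4.62e-05) and Ppt1 (-1.62, adjusted p = 3.51e-06). Npc2, a cholesterol-binding protein, was bright in both, at 11.01 ± 0.16 in microglia and 10.93 ± 0.04 in DC (SD, n = 3 each), and was not called.

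Genes of class II presentation were mostly lower in microglia. Of 12 genes, 10 were lower in microglia and 1 was higher, with a median of -2.84. Without the 3 genes of the class II molecules on which DC were gated, 7 of 9 were lower and 1 was higher. Ciita, the coactivator that switches class II genes on, had levels of 5.54, 5.61 and 4.93 in microglia, against 9.25, 9.16 and 9.24 in DC. Cd74, the invariant chain, had levels of 8.63, 7.35 and 8.43 in microglia, against 12.11, 12.08 and 12.08 in DC. Cd74 was above 7 in all microglia arrays, with the lowest in replicate 2, and Ciita was below 6 in all of them. No microglia array reached a DC array, with differences of -3.85 ± 0.16 (SE) for Ciita and -3.95 ± 0.28 (SE) for Cd74. H2-Oa (-2.46, adjusted p = 1.75e-06), H2-Ob (-2.71, adjusted p = 0.000109) and H2-DMa (-1.52, adjusted p = 0.000665), which guide peptide loading, were lower. Ctss, the protease that trims the invariant chain, was the gene that was higher (1.42, adjusted p = 5.52e-07).

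Promoter sequences of class II genes are shown because most of these genes were lower and many share an element. The CCAAT box (letters CCAAT, read on either strand, hence also ATTGG) was found in 8 of 12 RefSeq windows, which belong to 9 of the 12 genes (GRCm38.p6, 250 bases before to 50 after each gene start), which is 66.7% of windows against 37.4% of all 32851. The box was held by 6 of 8 called members with a window and by the 1 not called, Marchf1. The 150 bases before the start of 3 called members are given 5′ to 3′ on the strand of the gene, with the box in capitals. H2-Eb1 is at chr17:34305717-34305866 on the plus strand, H2-Aa at chr17:34287824-34287973 on the minus strand and H2-Ob at chr17:34238755-34238904 on the plus strand.
H2-Eb1: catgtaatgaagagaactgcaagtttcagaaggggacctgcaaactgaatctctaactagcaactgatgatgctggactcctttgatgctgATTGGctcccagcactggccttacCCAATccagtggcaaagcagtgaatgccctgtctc
H2-Aa: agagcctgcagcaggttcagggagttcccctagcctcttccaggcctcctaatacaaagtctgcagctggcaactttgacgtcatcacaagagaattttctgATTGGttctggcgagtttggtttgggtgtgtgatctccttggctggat
H2-Ob: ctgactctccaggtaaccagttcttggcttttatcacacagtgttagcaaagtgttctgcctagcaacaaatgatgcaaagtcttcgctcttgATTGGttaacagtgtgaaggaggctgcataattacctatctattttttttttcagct
In these 3 genes, which differed by -5.01, -4.44 and -2.71, the ATTGG begins at position -59, -48 and -57 from the start, and H2-Eb1 has another box, in the other orientation, at position -35. Both H2-Eb1 and H2-Aa encode gated molecules. A match describes the letters only, here and below.

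Class I presentation showed a narrower pattern. Of 22 genes, 10 were lower in microglia and 0 higher, with a median of -0.87. Tap1, a subunit of the peptide transporter, had levels of 6.13, 5.91 and 6.11 in microglia, against 9.01, 9.01 and 8.89 in DC. Psmb9, a subunit of the immunoproteasome, had levels of 9.05, 9.55 and 9.44 in microglia, against 11.88, 11.93 and 11.84 in DC. Wdfy4, a protein needed by type 1 DC to cross-present cell-associated antigen, had levels of 7.57, 7.86 and 7.50 in microglia, against 10.94, 10.98 and 10.94 in DC. Groups did not overlap for any of them, with differences of -2.92 ± 0.14 (SE), -2.54 ± 0.12 (SE) and -3.32 ± 0.16 (SE). B2m, the light chain of class I, was bright in both, at 12.25 ± 0.02 in microglia and 12.26 ± 0.04 in DC (SD, n = 3 each), and was not called (-0.01, adjusted p = 0.951). The chaperones Calr (0.10, adjusted p = 0.559) and Pdia3 (0.04, adjusted p = 0.858), which assist in loading class I molecules, were not called either.

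Co-stimulatory and checkpoint genes were lower in 9 and higher in 4 of 27. Cd24a, a glycosylated adhesion protein, had levels of 4.40, 3.72 and 4.22 in microglia, against 10.99, 11.08 and 10.88 in DC. Btla, an inhibitory receptor, had levels of 3.66, 3.63 and 3.61 in microglia, against 8.82, 8.47 and 8.45 in DC. Microglia arrays were at the low end for both, with differences of -6.87 ± 0.39 (SE) and -4.95 ± 0.11 (SE). The ligand Cd274, known as PD-L1 (-2.69, adjusted p = 1.69e-06), Cd40 (-2.36, adjusted p = 2.18e-07) and Cd80 (-1.63, adjusted p = 1.91e-06) were lower as well. Cd86 was under the fold minimum (-0.89, adjusted p = 5.52e-05). Vsir, an inhibitory ligand (2.59, adjusted p = 1.1e-05), Lgals9, a ligand of Tim-3 (3.10, adjusted p = 1.41e-06), and Lag3, a receptor for class II (2.47, adjusted p = 2.74e-05), were higher in microglia. Of 22 genes of DC maturation and migration, 14 were lower and 0 higher, among them the protease inhibitor Serpinb6b (-6.02, adjusted p = 1.73e-07) and Traf1 (-4.28, adjusted p = 2.74e-08). Fscn1, an actin-bundling protein of mature DC, was not called, at 10.05 ± 0.18 in microglia and 9.67 ± 0.01 in DC (SD, n = 3 each).

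**Figure D4:**
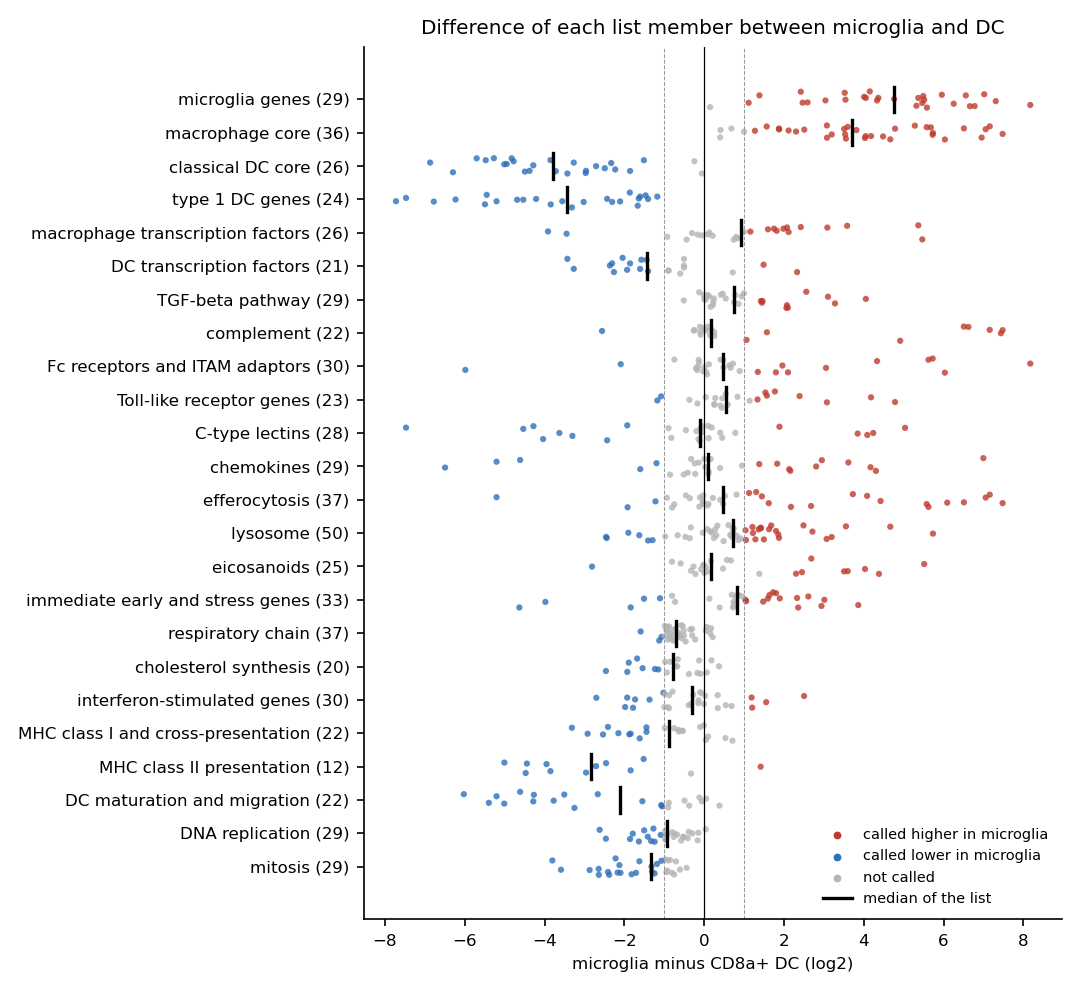
Difference in level between microglia and DC (log2, microglia minus DC) for each measured member of 24 gene lists, with the number measured in brackets. Points are genes, short vertical lines are list medians and dashed lines mark the fold minimum. Medians run from 4.76 in the microglia genes to -3.78 in the classical DC core, and mitosis and DNA replication hold no gene called higher.

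Called genes of mitosis and DNA replication were all lower in microglia. Of 29 genes of mitosis, 19 were lower, 0 higher and 10 not called, with a median of -1.32. Of 29 genes of DNA replication 11 were lower, 0 higher and 18 not called, with a median of -0.94. Mki67, the Ki-67 antigen of cycling cells, had levels of 4.88, 4.98 and 5.08 in microglia, against 8.02, 7.79 and 7.75 in DC. Top2a, which untangles chromosomes, had levels of 4.79, 4.25 and 4.39 in microglia, against 8.38, 8.25 and 8.20 in DC. Rrm2, which makes deoxynucleotides, had levels of 3.81, 3.95 and 3.59 in microglia, against 6.09, 6.73 and 6.40 in DC. Microglia arrays were at 5.1 or lower for all 3 genes and below every DC array, with differences of -2.87 ± 0.14 (SE), -3.80 ± 0.19 (SE) and -2.62 ± 0.16 (SE). Another probe set of Top2a, at 3.74 in microglia and 3.52 in DC, was not called. Of the 24 genes of cycle entry and arrest, 2 were higher, 1 was lower and 21 were not called, counts near the 5.15% and 6.01% of all genes and no result about the list. Myc (2.68, adjusted p = 0.000144) was higher in microglia and Mycl (-2.08, adjusted p = 3.19e-06) lower, and Ccnd1 was not called (-0.52, adjusted p = 0.427). Cdk6, a kinase of cycle entry, was the other higher gene (1.08, adjusted p = 0.00664) and lost its call without DC replicate 1 (0.98) or 3 (0.90). The count of lower genes was 3 without DC replicate 2 and 2 without microglia replicate 2.

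**Figure D5:**
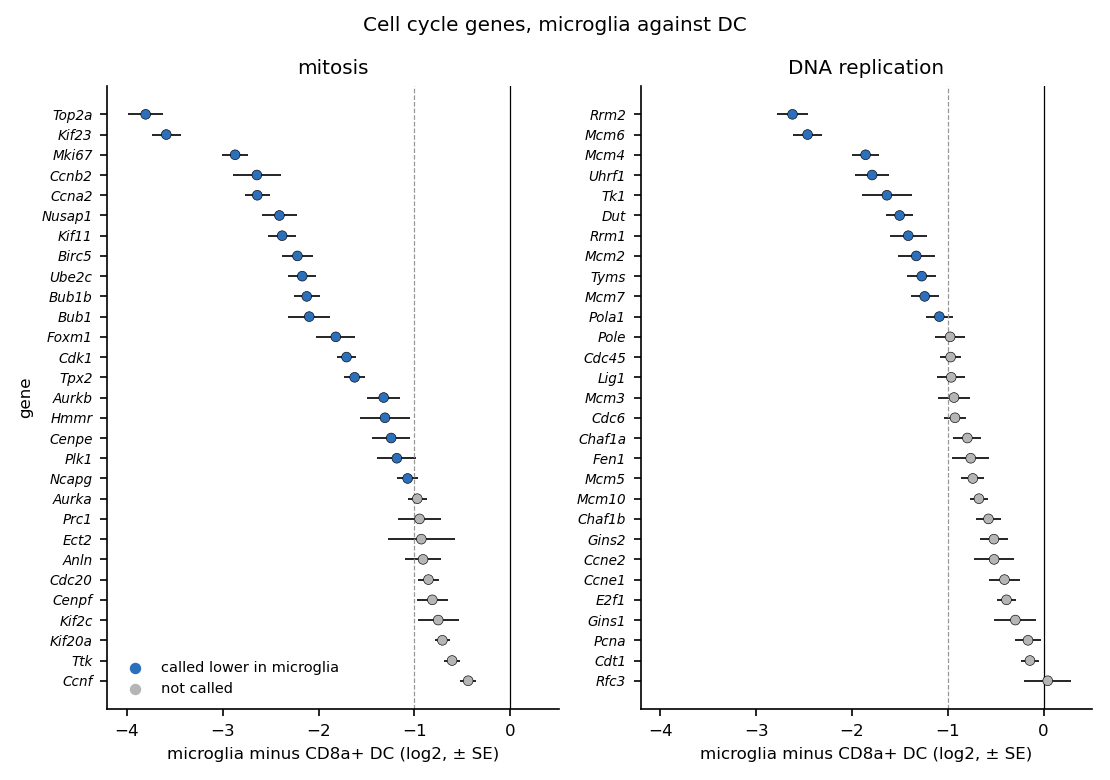
Difference in level between microglia and DC (log2, with SE from limma) for 29 genes of mitosis and 29 of DNA replication. The dashed line marks the fold minimum; 19 and 11 genes were called lower in microglia, led by Top2a and Rrm2.

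Promoters of the mitosis genes are shown because most of these genes were lower and 2 elements are shared among them that are known from genes of the late cell cycle. The CCAAT box was found in 22 of 26 windows, which belong to 24 of the 29 genes (84.6%, against 37.4% of all windows). The cell cycle homology region (letters TTTGAA on either strand, hence also TTCAAA) was found in 22 of 26 as well (84.6%, against 17.9% of all). The 2 motifs share no position, and both were present in 20 of 26 windows (76.9%, against 7.0% of all). Among genes with a window, 11 of 15 called members and 7 of 9 not called held both. The 150 bases before the start of 4 genes follow, with both motifs in capitals.
Top2a: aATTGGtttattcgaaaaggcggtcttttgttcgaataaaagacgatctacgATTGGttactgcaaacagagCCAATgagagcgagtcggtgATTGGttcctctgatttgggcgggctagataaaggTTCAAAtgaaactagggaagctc
Mki67: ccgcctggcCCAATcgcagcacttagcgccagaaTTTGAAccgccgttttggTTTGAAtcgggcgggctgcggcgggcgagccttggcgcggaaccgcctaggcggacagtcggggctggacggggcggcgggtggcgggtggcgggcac
Kif11: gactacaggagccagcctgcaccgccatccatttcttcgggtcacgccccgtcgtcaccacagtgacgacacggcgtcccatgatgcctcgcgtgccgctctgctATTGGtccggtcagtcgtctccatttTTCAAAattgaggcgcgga
Ube2c: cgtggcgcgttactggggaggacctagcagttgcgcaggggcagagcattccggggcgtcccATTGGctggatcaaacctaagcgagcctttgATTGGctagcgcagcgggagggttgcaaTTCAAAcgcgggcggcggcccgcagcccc
In GRCm38.p6 these stretches are chr11:99024190-99024339 (minus strand) for Top2a, chr7:135716380-135716529 (minus) for Mki67, chr19:37376232-37376381 (plus) for Kif11 and chr2:164769779-164769928 (plus) for Ube2c. Kif11, a spindle motor, and Ube2c, which tags mitotic cyclins for destruction, differed by -2.38 and -2.17 and were both called lower.

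Immediate early and stress genes, which are known to respond to tissue digestion and sorting, were called in both directions. Of 33, 14 were higher in microglia and 5 lower, with a median of 0.83. Jun, a subunit of AP-1, had levels of 12.17, 12 and 11.92 in microglia, against 9.42, 9.45 and 9.37 in DC. Fos, its partner, had levels of 11.58, 11.75 and 11.60 in microglia, against 10.61, 10.56 and 10.61 in DC. Both were above 9 in all 6 arrays, and the differences were 2.61 ± 0.07 (SE) for Jun and 1.05 ± 0.22 (SE) for Fos. Fos was at the fold minimum and lost its call without microglia replicate 2. Its difference then fell just under the fold minimum, while its adjusted p of 0.03 still passed. Rhob (3.86, adjusted p = 2.42e-07), Socs3 (3.01, adjusted p = 1.05e-06) and Sgk1 (2.94, adjusted p = 8.59e-08) were higher as well. Among the Nr4a family of early nuclear receptors, 2 genes had the reverse order. Nr4a2 had levels of 6.50, 5.80 and 6.73 in microglia, against 11, 10.97 and 10.96 in DC, and Nr4a3 had levels of 7.56, 5.99 and 7.49 in microglia, against 10.95, 11.04 and 10.99 in DC. No microglia array of either gene came within 3 units of a DC array, with differences of -4.63 ± 0.26 (SE) and -3.98 ± 0.36 (SE), whereas Nr4a1 was bright in both (-0.73, adjusted p = 0.0208). Egr2, another early factor, was not called (0.13, adjusted p = 0.869).

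Genes of lipid metabolism were called in both directions. Of 20 genes of cholesterol synthesis, 7 were lower in microglia and 0 higher, with a median of -0.78. Idi1, which isomerises the isoprene unit, had levels of 4.42, 3.65 and 4.31 in microglia, against 6.93, 6.48 and 6.36 in DC. Srebf2, the transcription factor of the pathway, had levels of 6.56, 6.37 and 6.89 in microglia, against 8.61, 8.40 and 8.57 in DC. DC arrays were above all microglia arrays, with differences of -2.46 ± 0.24 (SE) and -1.93 ± 0.14 (SE). Among genes of lipid uptake, storage and efflux, Abca1, Apoe (1.97, adjusted p = 0.000228), Mylip, which marks lipoprotein receptors for degradation (3.06, adjusted p = 1.07e-06), and Npc1 (1.80, adjusted p = 8.63e-06) were higher in microglia. In that list of 25 genes, 7 were higher and 6 lower, with a median of 0.08, the lower ones including Scd1 (-2.57, adjusted p = 7.4e-05) and Plin2 (-1.57, adjusted p = 1.06e-05). Abcg1, which exports cholesterol as Abca1 does, was not called (-0.10, adjusted p = 0.826).

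Genes of eicosanoid metabolism, which include enzymes and receptors, were higher in microglia in 8 of 25 cases and lower in 1. Hpgds, the hematopoietic prostaglandin D synthase, had levels of 11.22, 11.01 and 11.16 in microglia, against 6.03, 5.35 and 5.47 in DC. Hpgd, which inactivates prostaglandins, had levels of 11.31, 11.27 and 11.14 in microglia, against 7.33, 6.47 and 6.78 in DC. Microglia arrays were near 11 for both and DC arrays below 8, with differences of 5.52 ± 0.16 (SE) and 4.38 ± 0.29 (SE). The leukotriene enzymes Ltc4s (4.03, adjusted p = 2.48e-07) and Alox5 (2.45, adjusted p = 5.07e-06) were higher, and so was the leukotriene receptor Cysltr1 (3.51, adjusted p = 1.89e-05). Ptger4, a receptor for prostaglandin E2, was lower (-2.81, adjusted p = 0.000205). Ptgs2, the inducible cyclooxygenase, was not called (-0.59, adjusted p = 0.38).

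Genes of sugar metabolism were called in both directions. Of 22 genes of glycolysis and its transporters, 5 were higher and 5 lower. Slc2a5, the fructose transporter and a known microglia gene, had levels of 9.62, 9.63 and 9.22 in microglia, against 4.04, 4.39 and 4.07 in DC. Ldhb, a subunit of lactate dehydrogenase, had levels of 9.96, 9.67 and 9.87 in microglia, against 4.85, 4.72 and 4.28 in DC. Pfkp, the platelet-type phosphofructokinase, had levels of 4.34, 3.69 and 4.12 in microglia, against 8.49, 8.45 and 8.52 in DC. Groups lay at least 4 units apart for each, with differences of 5.32 ± 0.13 (SE), 5.21 ± 0.18 (SE) and -4.43 ± 0.15 (SE), whereas Aldoa (-0.04, adjusted p = 0.925) and Pkm (-0.18, adjusted p = 0.616) were not called. Without microglia replicate 3 the lower genes were 3. Subunits of the respiratory chain had a median difference of -0.71 over 37 genes. Only 3 passed the fold minimum, all lower, and none was higher. With no fold minimum 27 were lower, against 25.1% of all genes called in either direction by that rule. Cox5a had levels of 8.17, 8.30 and 8.44 in microglia, against 9.97, 9.89 and 9.82 in DC, a difference of -1.59 ± 0.11 (SE), while Ndufs1 (0.04, adjusted p = 0.844) did not differ by a called amount. That count of 3 was 7 without DC replicate 2, 6 without DC replicate 3 and 8 without microglia replicate 3.

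Genes of iron and heme handling gave 6 higher and 1 lower of 22. Slc40a1, the iron exporter ferroportin, had levels of 7.47, 7.99 and 7.53 in microglia, against 4.16, 4.12 and 3.63 in DC. Trf, the iron carrier transferrin, had levels of 10.82, 10.67 and 10.69 in microglia, against 7.56, 7.24 and 7.68 in DC. Microglia arrays were above DC arrays for both, with differences of 3.69 ± 0.18 (SE) and 3.23 ± 0.11 (SE). Hmox1, which breaks down heme, was also higher (1.88, adjusted p = 4.92e-05). Ferritin was bright in both, Ftl1 being at 11.71 ± 0.06 in microglia and 11.56 ± 0.02 in DC (SD, n = 3 each) with no call. DC arrays lay above microglia arrays in globin transcripts, as given above.

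Ion channels and cell death genes completed the surface and survival sets. Of 22 channels, 7 were higher, among them the proton channel Hvcn1 (2.50, adjusted p = 0.00278) and the potassium channels Kcnj2 (1.64, adjusted p = 0.00142) and Kcnk13 (1.22, adjusted p = 3.86e-05), and 3 were lower, led by Clic4 (-3.41, adjusted p = 8.63e-07). The count of higher channels was 4 when only genes at a level of 6 or more in at least 3 arrays were kept. Kcnj2 and Kcnk13 were among the dim genes left out there. Of 25 cell death genes, 2 were higher and 8 lower. Pmaip1, a trigger of apoptosis, had levels of 6.39, 6.18 and 5.76 in microglia, against 8.99, 8.68 and 8.79 in DC, and Bcl2l1, an inhibitor of it, had levels of 8.17, 7.99 and 8.21 in microglia, against 6.79, 6.48 and 7.03 in DC. The order was thus opposite, with differences of -2.71 ± 0.15 (SE) and 1.36 ± 0.14 (SE). Fas (-2.35, adjusted p = 7.73e-06), Casp6 (-2.44, adjusted p = 1.46e-05) and Bak1 (-1.53, adjusted p = 6.42e-05) were lower, Casp8 was higher (1.68, adjusted p = 0.000609), and Bcl2 was not called (0.11, adjusted p = 0.718).

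The set of genes known to rise in microglia near disease lesions was mixed, with 8 of 21 higher than in DC and 3 lower. Those higher were Timp2, Trem2, Csf1, Apoe, Ctsb (1.68, adjusted p = 1.88e-05), Lpl (1.61, adjusted p = 0.000247), Ccl6 (1.38, adjusted p = 0.000228) and Ank (1.06, adjusted p = 0.000172, and 0.98 without DC replicate 2). Among the 10 members not called were Gpnmb, Clec7a and Cst7, of which Gpnmb and Cst7 were named after their values were seen. Gpnmb was at 3.88 ± 0.11 in microglia and 3.79 ± 0.06 in DC (SD, n = 3 each), Clec7a at 6.21 ± 0.58 in microglia and 7.03 ± 0.14 in DC (SD, n = 3 each) and Cst7 at 5.98 ± 0.25 in microglia and 5.11 ± 0.29 in DC (SD, n = 3 each). With all arrays none of these 3 was called. Clec7a was called lower without microglia replicate 1, and Cst7 higher without DC replicate 2 or microglia replicate 2. Lgals3 and Cd52 (-2.22, adjusted p = 4.49e-07) were lower, as was Itgax, the gated CD11c.

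MicroRNA genes are covered by probe sets for their short transcripts, which do not measure the mature strands by themselves. Of 296 microRNA genes, 6 were higher in microglia and 1 was lower (2.36% called, against 11.2% of all genes). They are shown because 5 of the 6 lie in 2 clusters. Mir23a, Mir27a and Mir24-2 lie together on chromosome 8, and Mir17 and Mir18 on chromosome 14. The mature strands follow from RefSeq (GRCm38.p6), with bases 2 to 8, the seed that pairs with targets, in capitals.
mmu-miR-23a-3p: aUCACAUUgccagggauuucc
mmu-miR-27a-3p: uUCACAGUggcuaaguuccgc
mmu-miR-24-3p: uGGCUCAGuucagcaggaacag
mmu-miR-17-5p: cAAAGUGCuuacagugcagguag
mmu-miR-18a-5p: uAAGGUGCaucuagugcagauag
All 5 seeds are distinct. Mir23a had levels of 8.07, 7.76 and 7.86 in microglia, against 6.07, 5.41 and 6.19 in DC, and Mir24-2 had levels of 7.48, 7.32 and 8.08 in microglia, against 6.06, 5.66 and 6.0 in DC. Both cluster members separated the populations without overlap, with differences of 2.01 (adjusted p = 0.00048) and 1.72 (adjusted p = 0.000381), and Mir27a differed by 1.84 (adjusted p = 0.013). Mir17 had levels of 6.24, 5.63 and 6.95 in microglia, against 4.90, 4.59 and 4.55 in DC, a difference of 1.59 (adjusted p = 0.00496). Mir18 varied more between microglia arrays, with levels of 4.91, 3.81 and 6.53 in microglia, against 2.86, 3.0 and 3.22 in DC and a difference of 2.05 (adjusted p = 0.0285). Mir18 lost its call without any one DC array, microglia replicate 1 or the TZM arrays (adjusted p from 0.065 to 0.09), and Mir27a without microglia replicate 1 (adjusted p = 0.05). The other higher gene was Mir7-1 (1.11) and the lower one Mir680-1 (-2.75). These genes were chosen after their values were seen.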

How the data were processed

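Levels were the log2 values that the submitters deposited in the series' value table for an Affymetrix whole-transcript mouse array. Per the submitters' processing notes, the authors made them with RMA in Affymetrix Expression Console 1.3.1, which corrects background, normalises arrays to one another and summarises probes. A difference between groups is therefore relative to the bulk of each array. The genome build of the array annotation is not given in the sources used here. Array medians lay between 4.90 and 5.02, and no read depth applies to arrays.

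Of 35556 probe sets, 21789 carried 1 gene symbol, 1621 several and 12146 none in GEO's platform annotation. Symbols were updated through Entrez IDs against RefSeq (GRCm38.p6), where 21698 probe sets matched. The brightest probe set by mean over all 9 arrays was kept for each of 19938 genes, 999 of which had more than 1. Probe sets without a symbol are in no gene result and entered only the alternative over every probe set, which was fitted to all 35556.

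Groups followed the sample titles. Linear models with group as the only term were fitted to all 9 arrays with limma 3.58.1 in R 4.3.3, with empirical Bayes variances, and tested on simulated data with known changes. P-values were adjusted over all 19938 genes. In 20 alternatives the normalization, dim genes, probe sets, variance model, samples or fold minimum was changed. Named genes were the 12 largest called in each direction with non-overlapping arrays (no predicted or immunoglobulin genes), the 4 largest in each direction and the 2 brightest not called of each list, all members of short lists, and a list of further genes, 437 in all. A further 56 genes in the text were named after their values were seen, among them the microRNA genes, Ctrb1, Ccl3, Smad3, Csf2ra, Itga9, Lrp1, Kif11, Ube2c and Gpnmb. The members and lists were chosen with earlier results of these data known. Promoter windows and mature microRNA sequences came from RefSeq tables of GRCm38.p6, and motif letters were searched on both strands. A further motif, the CArG box, was searched in the immediate early and stress genes and found in 5 of 38 windows (13.2%, against 1.6% of all). These windows belong to Egr2 and Zfp36 alone, and some of the Egr2 windows overlap and hold the same site. The share of windows is therefore no count of genes. Of members with a window, 0 of 15 called and 2 of 13 not called held the box.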

Additional observations from a re-analysis of the deposited data

Results flagged for a closer look

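Probe sets that carry several gene symbols are outside the gene table and were tested as a separate set. Of 1621, 51 were higher in microglia (3.15%, against 5.15% of all genes) and 162 were lower (9.99%, against 6.01% of all genes) by the same call. Many repeat the same symbols, so that the higher ones hold 31 distinct sets of symbols and the lower ones 69, and these counts are not of separate genes. Lower in microglia were, besides the globin and amylase probe sets, one shared by Gm5424 and Ass1 (-4.45), one shared by the interferon-inducible GTPases Tgtp1 and Tgtp2 (-3.39) and one shared by Ly6c1 and Ly6c2 (-3.01). Of the lower ones, 76 carried the symbol of a ribosomal protein gene or pseudogene (20 distinct sets of symbols, with Rpl29, Rps2, Rpl17 and Rpl15 the most frequent) and 19 that of a histone gene (5 distinct sets), whereas no higher one carried either. How many of the 1621 carry such symbols was not counted. The 76 and 19 thus have no share to set beside the 9.99% and are no result about ribosomal or histone genes. Higher in microglia was a probe set shared by Rnase4 and Ang, secreted ribonucleases, with a difference of 6.29. The members of a shared probe set cannot be told apart.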

How the results depend on the processing

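No called gene named in the text changed direction under the alternatives in which it was tested. The alternatives with no minimum fold change and over every probe set kept each gene's difference, so they could not reverse it. Other probe sets of a gene entered only as part of a mean. Another probe set of Top2a had the opposite sign, at 0.22 with no call. With no minimum fold change 2400 genes were higher and 2606 lower, and over every probe set 1534 and 1906 were, against 1026 and 1198 with the settings of the report. Leaving out each array in turn gave 977 to 1067 higher and 1107 to 1229 lower. All other alternatives gave 918 to 1057 higher and 1063 to 1233 lower. Of 289 named genes that were called, 264 kept their call under every alternative tried, and of 114 list counts 74 stayed within 1.5 times of their value under all of them. The correlations of same-numbered arrays after removal of group means were 0.016, 0.089 and -0.069. Those of differently numbered arrays ran from -0.141 to 0.149. With 3 arrays per group these values cannot decide whether replicate numbers pair the samples. A fit with the replicate block gave 1024 higher and 1189 lower genes. Leaving out microglia replicates 1 and 3 together was chosen after seeing the data. The 3 arrays per group and the lack of a detection call here limit what can be said of genes below a level of 6.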
